A study of Homo sapiens with 6 samples.

Results

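In HSC3 cells, the arrays of TANGO siRNA and MATE2 siRNA, as labelled, were set against the 4 other arrays of the same experiment, labelled MIA siRNA, MIA2 siRNA, LEMD1 siRNA and control. HSC3 cells derive from a tongue carcinoma of squamous type. TANGO is a name of MIA3, a membrane protein of endoplasmic reticulum exit sites that helps bulky cargo such as procollagen into transport carriers, and MATE2 is a name of SLC47A2, a transporter of the kidney that moves organic cations out of cells. Each siRNA was meant to lower its own gene, and all 6 labels give the same cell line. The deposited design gives the control as a control siRNA, whereas the study's description of its arrays has the control cells as untreated. RNA of each condition was hybridized to 1 one-colour CodeLink Human Whole Genome array, which carries short DNA probes, and the signal of a probe is the brightness of its spot after subtraction of the local background and quantile normalization over the 6 arrays. A member is a gene probe with a good spot on all 6 arrays on which the TANGO and MATE2 siRNA arrays both lay at least 2-fold below, or both at least 2-fold above, each of the 4 other arrays. The rule found 190 lower probes, 0.81% of the 23444 gene probes with a good spot on all 6 arrays, and 103 higher probes, 0.439%, or 293 members and 1.25% in all. With 1 probe taken for each of 11482 named genes, 141 genes (1.23%) were lower and 78 (0.679%) were higher, which is 1.91% in either direction. Each label has 1 array, the TANGO and MATE2 siRNA arrays carry different labels and are not replicates of a condition, and so no error and no test can be given for any difference below.

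Squamous epithelium of the mouth is renewed by basal cells, which make the keratins KRT5 and KRT14 and hold to the underlying matrix through hemidesmosomes. As the cells move upwards they stop dividing, switch to other keratins such as KRT4, and make the small proline-rich SPRR proteins, which are crosslinked into a tough envelope under the plasma membrane. KRT8, KRT18 and KRT19 are typical of simple epithelia and are often found in carcinoma cells.

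The number of good spots was 29719 on the TANGO siRNA array and 30246 on the MATE2 siRNA array, against 28112 to 31162 on the 4 other arrays, and none of the 262 positive control spots with a good flag on all 6 arrays passed the rule (0 spots). Of the 15 markers of oral squamous epithelium listed, 13 had a probe, and all 13 were good on every array, with summed signals of 28095 on the TANGO siRNA array and 28892 on the MATE2 siRNA array, against 22379.6 to 44966 on the 4 other arrays. Some listed markers of fibroblasts (COL3A1, DCN, FAP and POSTN), endothelial cells (CDH5, KDR, TEK and TIE1), leukocytes (PTPRC, LAPTM5, LYZ and TYROBP) and melanocytes (DCT, MLANA, S100B, SOX10 and TYRP1) were near background on all 6 arrays. Others of these lists had good spots. An array had good spots for 4 to 6 of 10 fibroblast markers and 2 to 5 of 10 endothelial markers. For leukocyte markers it was 3 to 5 of 9 with a probe, and for melanocyte markers 2 to 3 of 8. In a check for mixed-up samples, however, 2 of the 6 arrays, those labelled TANGO siRNA and MATE2 siRNA, did not match the other 4, although all 6 carry the same cell line label. Whether their RNA came from the same stock, or from the same line, as that of the 4 other arrays was not tested. In this design the siRNAs, the culture or stock of cells and the array of these conditions cannot be told apart, so every difference below is one between arrays.

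The targets of the siRNAs were examined next. The probe of SLC47A2 gave a signal of 58.9 and 79.6 on the TANGO and MATE2 siRNA arrays, against 1334, 1575, 1703 and 1509.8 on the MIA siRNA, MIA2 siRNA, LEMD1 siRNA and control arrays. The transcript targeted by MATE2 siRNA was thus at least 16.8-fold lower on the array labelled MATE2 siRNA, and it was as low on the array labelled TANGO siRNA, whose siRNA has another target. Below, signals on the 4 other arrays are always listed for MIA siRNA, MIA2 siRNA, LEMD1 siRNA and control in turn. No probe was named for MIA3, so the target of TANGO siRNA could not be checked. LEMD1 gave 3192 and 1011 on the TANGO and MATE2 siRNA arrays, against 195 on the MIA siRNA array and 278 on the control array, and its spots on the MIA2 and LEMD1 siRNA arrays were near background. LEMD1 was therefore brightest on those 2 arrays, and dim on the array of its own siRNA. The 1 good probe of MIA2 gave 136 and 238 on the TANGO and MATE2 siRNA arrays, against 138, 169, 175 and 155 on the 4 other arrays, an overlap of the groups, and MIA was near background on all 6 arrays.

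The TANGO and MATE2 siRNA arrays also differed from each other. Among the 23444 probes, 2247 (9.58%) were at least 2-fold apart between the TANGO and MATE2 siRNA arrays, against 2297 to 3137 between either of them and any of the 4 other arrays, and 214 to 1564 between any pair of the 4 other arrays. The robust SD of the log2 difference was 0.48 between the TANGO and MATE2 siRNA arrays, 0.45 to 0.63 across the groups and 0.29 to 0.50 within the 4 other arrays. Within those 4, MIA siRNA with control and MIA2 siRNA with LEMD1 siRNA were the closest pairs, at 214 and 217 probes. The members are thus the differences that a dissimilar pair of arrays had in common.

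**Figure D1:**
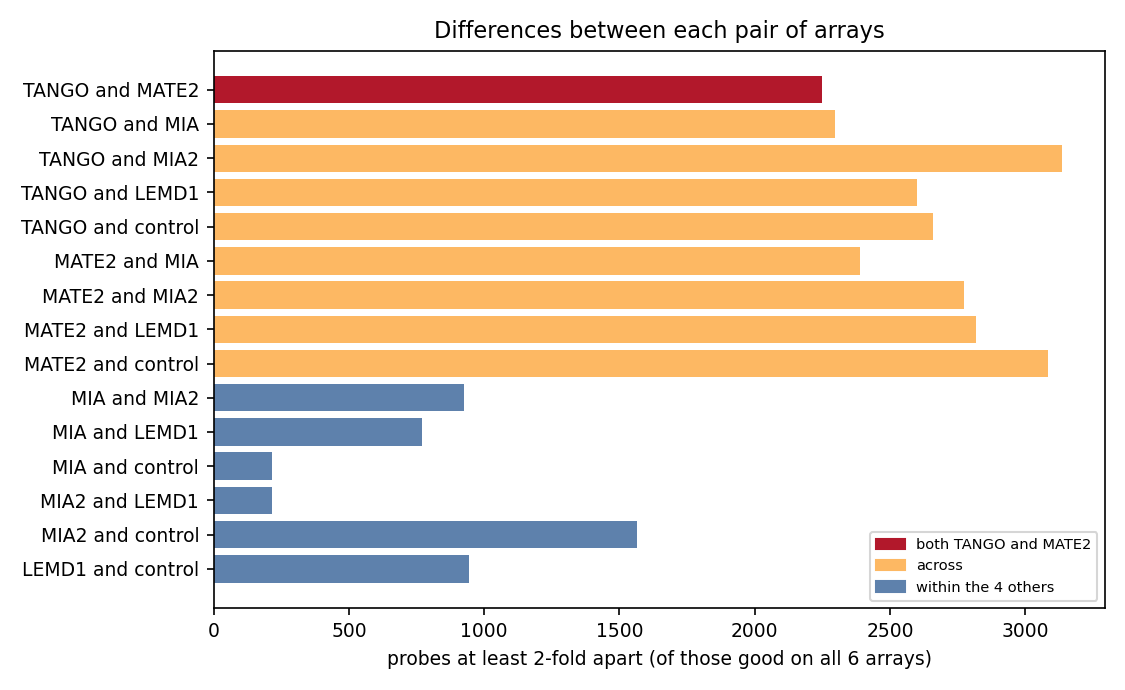
Number of probes at least 2-fold apart (x axis) for each of the 15 pairs of arrays (y axis), of the 23444 probes with a good spot on all 6 arrays, coloured by whether a pair lies within the TANGO and MATE2 siRNA arrays, across the groups or within the 4 other arrays. The TANGO and MATE2 siRNA arrays were 2247 probes apart, close to the smallest count across the groups, 2297, and above every pair of the 4 other arrays.

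The higher members were led by genes of the cornified envelope. SPRR1B, an envelope precursor, gave 6572 and 5652 on the TANGO and MATE2 siRNA arrays, against 78.5, 268, 223 and 50.5 on the MIA siRNA, MIA2 siRNA, LEMD1 siRNA and control arrays, at least 21.1-fold higher on either array than on any of the 4. SPRR1A gave 1404 (TANGO siRNA) and 1074 (MATE2 siRNA), against 75.5, 116, 95 and 70.3 on the 4 others. SPRR3, of the same family, gave 454 and 1156 on the TANGO and MATE2 siRNA arrays, against 115, 95.5, 104 and 108 on the 4 other arrays. All 3 were dim on every one of the 4 other arrays. SPRR1A and SPRR1B are close in sequence, and how far a probe of 1 reads the other is not known here. Of 10 measured genes of the cornified envelope, these 3 passed the rule upwards and none downwards, and 4 lay above all 4 other arrays by any amount, among them CSTA, a protease inhibitor of the envelope, with 232 (TANGO siRNA) and 410.0 (MATE2 siRNA), against 94.6, 195, 119.8 and 85.8 on the 4 others. The median log2 difference of the list was -0.012, against -0.020 over all 11482 genes. Its other 6 members lay neither above nor below all 4. For comparison, 15.6% of all genes lay above all 4 other arrays and 18.9% lay below them.

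The 3 SPRR genes sit beside each other on chromosome 1, and their promoters are printed here because the genes moved together on these arrays. The 250 bases before each start site were taken from RefSeq (GRCh38.p14) and searched for the binding motif of AP-1, a dimer of FOS and JUN proteins, as TGANTCA, with N any base, on both strands (the motif is its own reverse complement). Capitals mark the matches, and 6.57% of all 35116 promoters in the table held the motif in these 250 bases.
SPRR1B promoter (chr1:153030953-153031202, plus strand): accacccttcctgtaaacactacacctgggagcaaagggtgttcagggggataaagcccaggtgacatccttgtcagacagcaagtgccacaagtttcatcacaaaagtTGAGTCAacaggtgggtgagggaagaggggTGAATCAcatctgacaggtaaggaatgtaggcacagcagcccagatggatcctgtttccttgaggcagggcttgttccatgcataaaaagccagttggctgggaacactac
SPRR1A promoter (chr1:152983831-152984080, plus strand): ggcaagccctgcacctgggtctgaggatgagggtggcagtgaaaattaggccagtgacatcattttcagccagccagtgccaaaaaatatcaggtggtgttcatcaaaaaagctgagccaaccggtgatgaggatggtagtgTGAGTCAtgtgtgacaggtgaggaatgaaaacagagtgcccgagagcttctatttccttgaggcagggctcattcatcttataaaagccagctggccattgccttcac
SPRR3 promoter (chr1:153001499-153001748, plus strand): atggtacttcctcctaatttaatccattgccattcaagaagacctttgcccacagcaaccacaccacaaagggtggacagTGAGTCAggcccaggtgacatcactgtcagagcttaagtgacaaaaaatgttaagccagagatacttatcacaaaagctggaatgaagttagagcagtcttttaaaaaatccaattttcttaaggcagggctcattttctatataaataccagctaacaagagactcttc
The SPRR1B stretch held 2 matches, starting 141 and 111 bases before the start site, the SPRR1A stretch 1 at 108 bases and the SPRR3 stretch 1 at 170 bases. A match is a run of letters and says nothing of binding in these cells. Among the promoters of all higher genes, 8 of 81 (9.88%) held the motif, as did 19 of 226 (8.41%) of those of lower genes, some genes having several promoters and 191 of 240 member symbols having any in the table. Of the 19 measured genes on a list of AP-1 and immediate early genes, KLF4, a zinc finger factor of differentiating epithelium, was the 1 that passed the rule, with 480.0 and 425 on the TANGO and MATE2 siRNA arrays, against 169, 133, 179 and 176 on the 4 other arrays. Its other good probe gave 146 (TANGO siRNA) and 171 (MATE2 siRNA), against 109, 96.0, 83.7 and 89.6 on the 4 others, which is apart by less than 2-fold, and the probe taken did not pass without background correction. Outside that list, JDP2, a partner of JUN proteins that can repress AP-1, passed downwards with 912 and 1208 on the TANGO and MATE2 siRNA arrays, against 5146, 5216, 4913 and 5766 on the 4 other arrays, at least 4.07-fold lower.

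Keratins had members in both directions, as did other lists such as the cell junction genes. KRT19 had the largest gap of all members, with signals of 68.4 and 108 on the TANGO and MATE2 siRNA arrays, against 7579, 14792, 15098 and 7883 on the MIA siRNA, MIA2 siRNA, LEMD1 siRNA and control arrays. It was among the brighter spots on each of the 4 other arrays and close to the dimmest good spots on the TANGO and MATE2 siRNA arrays, at least 70.3-fold lower. In RNA of whole cultures, fewer cells that express a gene and less of its RNA per cell cannot be told apart. A probe of its pseudogene KRT19P2, which may read the same transcript, was near background on both and bright on the 4 others, with signals of 774, 2174, 1535 and 741. KRT8, another keratin of simple epithelia, gave 1594 (TANGO siRNA) and 1589 (MATE2 siRNA), against 9559.7, 3870.0, 6075 and 10524 on the 4 others. KRT18, its partner in filaments, gave 1935 and 2066 on the TANGO and MATE2 siRNA arrays, against 10524, 3465, 4210.4 and 8785 on the 4 other arrays, below all 4 but not by 2-fold. For both simple keratins the MIA2 and LEMD1 siRNA arrays were dimmer than the MIA siRNA and control arrays. KRT16, a keratin of activated and hyperproliferative epithelium, gave 4378 (TANGO siRNA) and 11539 (MATE2 siRNA), against 521, 676, 602 and 549 on the 4 others. KRT4, a keratin of the upper layers of moist squamous epithelium, gave 3508 and 4378 on the TANGO and MATE2 siRNA arrays, against 491, 746, 625 and 563 on the 4 other arrays. Both were at least 4-fold higher on either array than on any other. KRT6C, with 11846 (TANGO siRNA) and 10188 (MATE2 siRNA), against 1306, 4132, 4855 and 1526 on the 4 others, was higher too, and the MIA2 and LEMD1 siRNA arrays stood between the other groups there. KRT6C did not pass in the authors' normalized table. The basal keratin KRT14 gave 309 and 2812 on the TANGO and MATE2 siRNA arrays, against 6483, 16779.6, 14440.4 and 5354 on the 4 other arrays. It was below all 4 on both, by far the lowest on the TANGO siRNA array, and less than 2-fold below the control array on the MATE2 siRNA array. Of 16 keratins measured, 3 passed the rule upwards and 2 downwards, 5 lay above and 5 below all 4 other arrays, and the median log2 difference was -0.14. Keratin genes are alike in sequence, so probes of KRT6C, KRT14 and KRT16 may also read their close relatives.

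**Figure D2:**
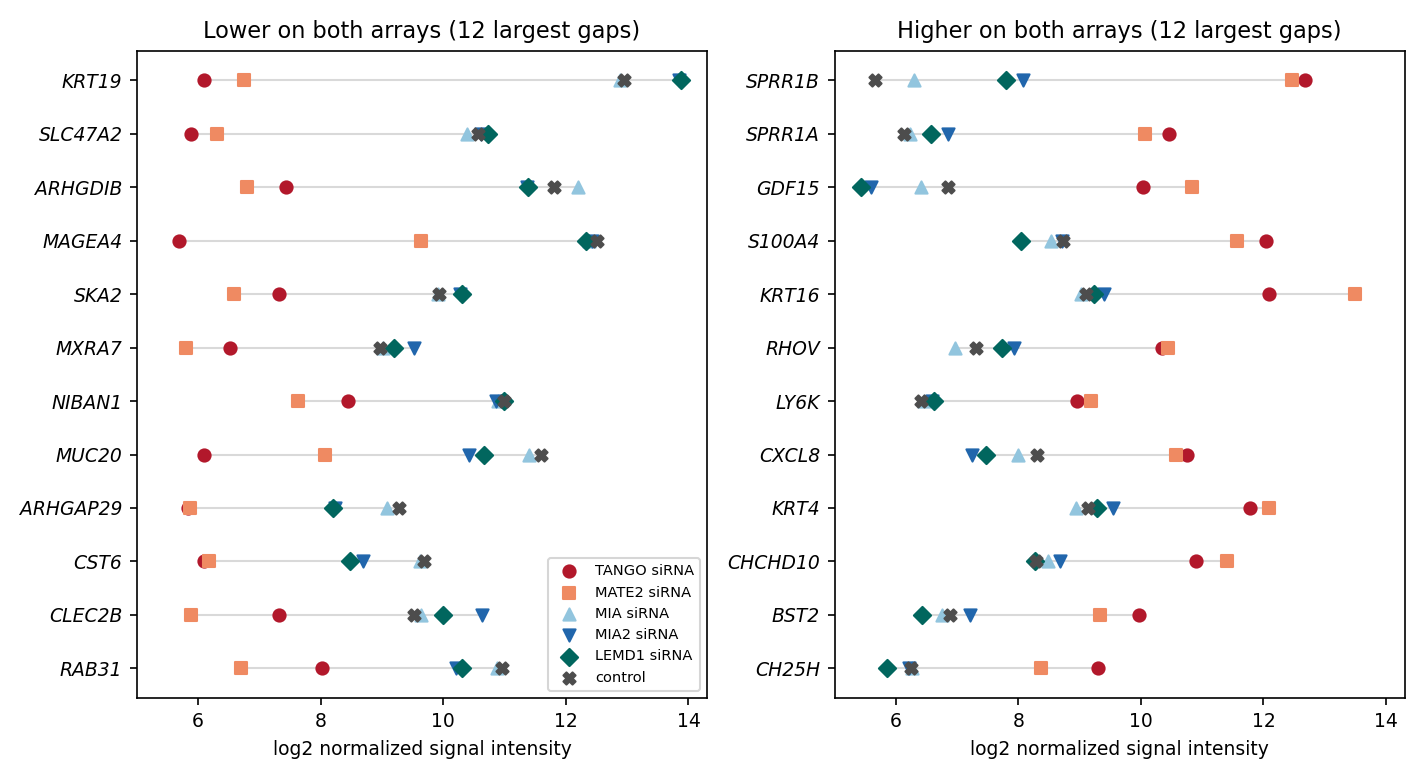
Log2 normalized signal (x axis) on each of the 6 arrays for the 12 lower genes (left) and the 12 higher genes (right) with the largest gaps, 1 row a gene, with each array its own symbol. By the rule, the TANGO and MATE2 siRNA arrays lie on the same side of the 4 others in every row. The gaps run from KRT19 (70.3-fold) to RAB31 (4.58-fold) on the left and from SPRR1B (21.1-fold) to CH25H (4.27-fold) on the right. MAGEA4 and MUC20 show the widest spread between the TANGO and MATE2 siRNA arrays.

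Other genes of the upper epidermal and oral layers were among the higher members. SPINK5, an inhibitor of the kallikrein proteases that loosen the contacts of shed cells, gave 5307 (TANGO siRNA) and 528 (MATE2 siRNA), against 73.2, 128, 113 and 75.6 on the 4 others. The TANGO siRNA array was far brighter than the MATE2 siRNA array, and both lay at least 4.14-fold above every other array. CLDN4, a claudin of tight junctions, gave 4658 and 7402 on the TANGO and MATE2 siRNA arrays, against 1131, 390.2, 716 and 1294 on the 4 other arrays. GRHL3, a transcription factor needed for the skin barrier in mice, gave 912 (TANGO siRNA) and 820.0 (MATE2 siRNA), against 99.5, 217, 405 and 149.5 on the 4 others. SPINK5 was the 1 member that passed on a list with 14 measured kallikreins, serpins and related genes of the epidermis, of which 7 lay above all 4 other arrays and 0 below them, with a median log2 difference of 0.61. The kallikrein KLK9, which is not on that list, passed downwards, with 66.1 and 179 on the TANGO and MATE2 siRNA arrays, against 573, 781, 637 and 686 on the 4 other arrays. GRHL3 did not pass under median scaling. Of 18 squamous lineage factors measured, KLF4 and GRHL3 passed, and the median was 0.17. JAG1, a Notch ligand, gave 1206 (TANGO siRNA) and 387 (MATE2 siRNA), against 166, 160.5, 187 and 151 on the 4 others. NOTCH1, its receptor, gave 1047 and 611 on the TANGO and MATE2 siRNA arrays, against 131, 230.4, 362 and 158 on the 4 other arrays, without passing the rule. Of 13 Notch pathway genes, JAG1 alone passed, not so with the groups normalized apart, 5 lay above all 4 and 1 below, with a median of 0.49.

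The higher members with large gaps included further genes of varied roles. GDF15, a stress-induced cytokine of the TGF-beta family, gave 1053 and 1817 on the TANGO and MATE2 siRNA arrays, against 84.8, 48.5, 43.0 and 115 on the MIA siRNA, MIA2 siRNA, LEMD1 siRNA and control arrays. It was at least 9.15-fold higher, with the MATE2 siRNA array the brightest of all. CXCL8, interleukin 8, which attracts neutrophils, gave 1715 (TANGO siRNA) and 1521 (MATE2 siRNA), against 255, 152, 178 and 317 on the 4 others, and it was the 1 to pass on a list with 17 measured cytokine, chemokine and receptor genes. The chemokine CCL17, which is not on that list, passed upwards as well, with 621 and 280.0 on the TANGO and MATE2 siRNA arrays, against 103, 116, 96.7 and 90.9 on the 4 other arrays. S100A4, a calcium-binding protein linked to motility, gave 4203 (TANGO siRNA) and 3044 (MATE2 siRNA), against 368, 421, 265 and 422 on the 4 others, and was the 1 of 8 S100 genes measured on all 6 arrays that passed. RHOV, an atypical small GTPase, gave 1300.3 and 1396 on the TANGO and MATE2 siRNA arrays, against 125, 243, 214 and 158 on the 4 other arrays. LY6K, a small membrane-anchored protein known as a cancer-testis antigen, gave 495 (TANGO siRNA) and 585 (MATE2 siRNA), against 87.6, 96.8, 98.3 and 85.5 on the 4 others. The 4 other arrays lay close together for LY6K. CH25H, which makes 25-hydroxycholesterol, gave 631 and 329.8 on the TANGO and MATE2 siRNA arrays, against 77.3, 74.3, 58.2 and 75.8 on the 4 other arrays. CHCHD10, a mitochondrial protein, gave 1905 (TANGO siRNA) and 2726 (MATE2 siRNA), against 357, 411, 308 and 312 on the 4 others. In both the 4 other arrays lay within 2-fold of each other. ID3, an inhibitor of helix-loop-helix factors that responds to bone morphogenetic proteins, gave 3238 and 1068 on the TANGO and MATE2 siRNA arrays, against 152, 523, 319 and 146 on the 4 other arrays, where the MIA2 siRNA array came within 2.04-fold. ID3 did not pass under median scaling, and it was the 1 of 16 TGF-beta and BMP response genes that passed by the probe taken. ID1 gave 1170 and 347 on the TANGO and MATE2 siRNA arrays, against 174, 164, 155 and 117 on the 4 other arrays, just short of 2-fold. Its other good probe passed, with 707 (TANGO siRNA) and 254 (MATE2 siRNA), against 102, 98.3, 126 and 108 on the 4 others.

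Several higher members belong to stress responses, and each response was represented by few of its genes. HSPB1, a small heat shock protein, gave 18468 and 19037 on the TANGO and MATE2 siRNA arrays, against 1427, 5975, 3882 and 1334 on the MIA siRNA, MIA2 siRNA, LEMD1 siRNA and control arrays. It was brightest on the TANGO and MATE2 siRNA arrays, and the MIA2 and LEMD1 siRNA arrays lay between those and the MIA siRNA and control arrays. SERPINH1, a chaperone of procollagen in the endoplasmic reticulum, gave 4236 (TANGO siRNA) and 3162 (MATE2 siRNA), against 394, 838, 1133 and 487 on the 4 others. Its other good probe gave 1807 and 1014 on the TANGO and MATE2 siRNA arrays, against 449.7, 405, 630.1 and 468 on the 4 other arrays, above all 4 by less than 2-fold. HSPB1 was the 1 of 15 heat shock genes to pass, with 4 above and 3 below all 4 other arrays and a median of -0.29. By array, however, the median of these genes against the mean of the 4 others was 0.08 (TANGO siRNA) and -0.03 (MATE2 siRNA). Of 16 collagen and collagen processing genes, a list that bears on the known cargo of MIA3, SERPINH1 passed upwards and COL17A1, a hemidesmosome collagen, passed downwards with 88.3 (TANGO siRNA) and 86.9 (MATE2 siRNA), against 243, 194, 234 and 333 on the 4 others. COL17A1 was dim throughout and did not pass with another background correction. None of 22 genes of endoplasmic reticulum exit and the COPII coat passed the rule (0 genes), 7 lay above and 5 below all 4, and the median was 0.02. ASNS, asparagine synthetase, gave 2429.5 and 1918 on the TANGO and MATE2 siRNA arrays, against 866, 296, 272 and 807 on the 4 other arrays. STC2, a secreted glycoprotein, gave 309 (TANGO siRNA) and 1887 (MATE2 siRNA), against 119.8, 94.6, 87.0 and 130.5 on the 4 others. ASNS did not pass with the groups normalized apart, nor STC2 with another background correction. ASNS and STC2 were the 2 of 21 measured genes on a list of the ATF4 amino acid response that passed. On the list 9 lay above and 0 below all 4, and its median was 0.37. DDIT3, a factor of the stress response, was among these 9. It gave 512 and 1456 on the TANGO and MATE2 siRNA arrays, against 349, 255, 234 and 340.1 on the 4 other arrays. Outside the list, SARS1 passed upwards, with 448 (TANGO siRNA) and 326 (MATE2 siRNA), against 113, 90.3, 139 and 116 on the 4 others. PYCR1, also outside it, passed upwards at 2.025-fold. MT1X, a metallothionein that binds zinc and copper, gave 7579 (TANGO siRNA) and 5839 (MATE2 siRNA), against 789, 1837, 1541 and 927 on the 4 others. SLC30A1, a zinc exporter, gave 477 and 338 on the TANGO and MATE2 siRNA arrays, against 108, 139, 186 and 124 on the 4 other arrays, without passing the rule.

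The promoters of 3 chosen genes are shown, each with its best known response element searched for by letters. Only promoters with a match are printed, and those of other genes named above, such as HSPB1 and STC2, are not shown. The heat shock element was searched for as 3 inverted repeats of GAA with 2 free bases between them (GAA, NN, TTC, NN, GAA, or TTC, NN, GAA, NN, TTC), the amino acid response element as TGATGNAA, and the metal response element as TGCGCNC and TGCACNC, all on both strands, in the 250 bases before the start site. They were held by 0.441%, 3.14% and 24.8% of all 35116 promoters, in that order. Among the 81 promoters of higher genes, 2 (2.47%), 2 (2.47%) and 23 (28.4%) held them. Among the 226 promoters of lower genes it was 0 (0.0%), 2 (0.885%) and 59 (26.1%). Where the RefSeq table has several promoters of a gene (2 each for SERPINH1 and ASNS), the one with a match is printed. Capitals mark the matches.
SERPINH1 promoter (chr11:75562003-75562252, plus strand): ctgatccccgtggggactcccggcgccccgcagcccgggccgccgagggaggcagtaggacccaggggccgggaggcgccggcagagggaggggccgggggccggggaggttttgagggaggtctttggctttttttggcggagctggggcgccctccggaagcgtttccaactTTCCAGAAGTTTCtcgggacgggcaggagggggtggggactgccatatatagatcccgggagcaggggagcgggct
ASNS promoter (chr7:97872409-97872658, minus strand): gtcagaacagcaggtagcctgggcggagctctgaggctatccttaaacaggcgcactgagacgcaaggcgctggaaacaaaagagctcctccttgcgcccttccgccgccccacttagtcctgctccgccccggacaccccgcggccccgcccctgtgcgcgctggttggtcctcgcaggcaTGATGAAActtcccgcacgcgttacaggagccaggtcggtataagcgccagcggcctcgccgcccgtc
MT1X promoter (chr16:56682220-56682469, plus strand): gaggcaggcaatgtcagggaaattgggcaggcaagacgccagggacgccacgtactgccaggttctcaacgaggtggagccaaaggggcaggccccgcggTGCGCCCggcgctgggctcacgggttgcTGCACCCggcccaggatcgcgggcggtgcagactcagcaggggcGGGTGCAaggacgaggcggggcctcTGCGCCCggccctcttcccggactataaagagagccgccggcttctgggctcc
The SERPINH1 stretch held the heat shock letters 76 bases before the start site and the ASNS stretch its letters 68 bases before it. MT1X held 4 matches to the metal response letters, which begin 150, 122, 78 and 53 bases before its start site. The metal letters are common, with 24.8% of promoters holding at least 1 match.

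The lower members next in size to KRT19 and SLC47A2 had varied roles. ARHGDIB, an inhibitor of small GTPase cycling best known in blood cells, gave 172 and 111 on the TANGO and MATE2 siRNA arrays, against 4722, 2629, 2680.2 and 3572 on the MIA siRNA, MIA2 siRNA, LEMD1 siRNA and control arrays, and was at least 15.3-fold lower. MAGEA4, a cancer-testis antigen of the X chromosome, gave 51.6 (TANGO siRNA) and 792 (MATE2 siRNA), against 5354, 5497, 5161 and 5839 on the 4 others. It was even across the 4 other arrays and much dimmer on the TANGO siRNA array than on the MATE2 siRNA array. SKA2, which joins kinetochores to the spindle, gave 160.0 and 96.1 on the TANGO and MATE2 siRNA arrays, against 965, 1232, 1266 and 975 on the 4 other arrays, and its other probe, with 63.0 (TANGO siRNA) and 70.3 (MATE2 siRNA), against 839.9, 1216, 813 and 713 on the 4 others, passed the rule as well. NIBAN1, a stress-responsive protein, gave 349 and 199 on the TANGO and MATE2 siRNA arrays, against 1905, 1859, 2034 and 2033 on the 4 other arrays, with the 4 other arrays nearly level. RAB31, a small GTPase of endosomal transport, gave 259 (TANGO siRNA) and 104 (MATE2 siRNA), against 1891, 1188, 1270.4 and 1993 on the 4 others. ARHGAP29, a GTPase-activating protein, gave 57.4 and 58.4 on the TANGO and MATE2 siRNA arrays, against 545, 303, 293 and 619 on the 4 other arrays. CST6, a secreted inhibitor of cysteine proteases, gave 68.7 (TANGO siRNA) and 72.3 (MATE2 siRNA), against 785, 413, 358 and 828 on the 4 others. All 3 were dimmer on the MIA2 and LEMD1 siRNA arrays than on the MIA siRNA and control arrays, and dimmest on the TANGO and MATE2 siRNA arrays. MUC20, a membrane mucin, gave 68.3 and 269.9 on the TANGO and MATE2 siRNA arrays, against 2692, 1373, 1631 and 3084 on the 4 other arrays. MXRA7, a matrix-remodelling associated protein, gave 91.7 (TANGO siRNA) and 55.8 (MATE2 siRNA), against 515, 733, 588 and 502 on the 4 others. MUC20 varied more than MXRA7 among the 4 other arrays. CLEC2B, a lectin-like membrane protein, gave 159 and 59.0 on the TANGO and MATE2 siRNA arrays, against 797, 1591, 1020.3 and 739 on the 4 other arrays by the probe taken, whereas its other good probe gave 158 (TANGO siRNA) and 141 (MATE2 siRNA), against 157, 174, 176 and 144 on the 4 others, an overlap of the groups.

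Adhesion and matrix genes were found among the lower and the higher members. LAMB1, a laminin chain of basement membranes, gave 72.5 and 72.9 on the TANGO and MATE2 siRNA arrays, against 487, 181, 257 and 626 on the 4 other arrays, and it was the 1 of 17 hemidesmosome, laminin and integrin genes to pass, with a median of -0.52 and 3 below all 4 against 2 above. LAMB1, like LATS2 named further on, did not pass with another background correction. CTNNA1, which links cadherins to actin, gave 497 (TANGO siRNA) and 433 (MATE2 siRNA), against 1147, 1105, 1241 and 1188 on the 4 others. It was the 1 of 20 cell junction genes that passed downwards, CLDN4 being the 1 that passed upwards, with 3 below and 5 above all 4 and a median of 0.14. SPARC, a matricellular protein, gave 146 and 116 on the TANGO and MATE2 siRNA arrays, against 385, 1979, 2225 and 489 on the MIA siRNA, MIA2 siRNA, LEMD1 siRNA and control arrays, so that the MIA2 and LEMD1 siRNA arrays were several times brighter than the MIA siRNA and control arrays, and its other probe passed the rule too. Of 6 measured genes on a list of the epithelial to mesenchymal transition, SPARC passed downwards and S100A4 upwards, and the median was -0.18. LATS2, a kinase of the Hippo pathway whose gene is also a YAP target, gave 70.6 and 76.5 on the TANGO and MATE2 siRNA arrays, against 213, 157, 191 and 266 on the 4 other arrays. Of 15 YAP target genes 8 lay below all 4 other arrays (53.3%) and 2 above (13.3%), with the lowest median of the lists shown in the plot of gene lists, -0.88. Among the others, F3, tissue factor, gave 856 (TANGO siRNA) and 819.6 (MATE2 siRNA), against 5043, 1338, 1718 and 4621 on the 4 others. TEAD1, the DNA-binding partner of YAP, gave 314 and 299 on the TANGO and MATE2 siRNA arrays, against 1009.8, 545, 763 and 1029.7 on the 4 other arrays, and neither passed the 2-fold rule.

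Interferon and antigen processing genes went both ways at their extremes. IRF1, a transcription factor induced by interferon, gave 121 and 90.9 on the TANGO and MATE2 siRNA arrays, against 481, 589.8, 539 and 609 on the MIA siRNA, MIA2 siRNA, LEMD1 siRNA and control arrays. Its other probe, with 67.7 (TANGO siRNA) and 84.4 (MATE2 siRNA), against 353, 456, 315 and 423 on the 4 others, passed the rule too, and in both probes the 4 other arrays lay within 2-fold of each other. IFI35 gave 265 and 266 on the TANGO and MATE2 siRNA arrays, against 604, 901, 668 and 662 on the 4 other arrays. BST2, tetherin, an interferon-induced protein that holds virus particles at the cell surface, was the exception, with 1008 (TANGO siRNA) and 642 (MATE2 siRNA), against 108, 149, 86.4 and 118 on the 4 others, at least 4.31-fold higher. Of 34 interferon-stimulated genes, 2 passed downwards and 1 upwards, 10 lay below all 4 and 1 above, and the median was -0.29. ERAP2, a peptidase that trims peptides for MHC class I, gave 347 and 227 on the TANGO and MATE2 siRNA arrays, against 1345, 1267, 1281 and 1715 on the 4 other arrays. It alone passed among 10 MHC class I and antigen processing genes, of which 5 lay below all 4 and 0 above, with PSMB9, an immunoproteasome subunit, at 153 (TANGO siRNA) and 446 (MATE2 siRNA), against 930.0, 1402, 771 and 877 on the 4 others. CTSS, a lysosomal cysteine protease, gave 122 and 92.1 on the TANGO and MATE2 siRNA arrays, against 921, 384, 354 and 1298 on the 4 other arrays, and passed by its other probe as well.

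Genes of division and of DNA synthesis had negative medians, more so on the TANGO siRNA array. KIF11, the motor that separates the spindle poles, gave 56.2 (TANGO siRNA) and 81.9 (MATE2 siRNA), against 199.6, 264, 559 and 214 on the 4 others. MCM3, a subunit of the replicative helicase, gave 119.6 and 144 on the TANGO and MATE2 siRNA arrays, against 628, 395, 452 and 634 on the 4 other arrays. KIF11 did not pass with another background correction. KIF11 and MCM3 were the members that passed on lists with 24 measured mitosis genes and 27 measured DNA replication genes. SKA2, named above, NCAPD2, KIF18A and CENPK are outside these lists and passed downwards too. Of the listed mitosis genes 8 lay below all 4 and 1 above, with a median of -0.88. By array, the median of the mitosis genes against the mean of the 4 others was -1.82 on the TANGO siRNA array and -0.40 on the MATE2 siRNA array. Of the replication genes 7 lay below and 0 above, with a median of -0.61. It was -0.86 on the TANGO siRNA array and -0.30 on the MATE2 siRNA array. Several of these parted the TANGO siRNA array from the MATE2 siRNA array, as TK1, thymidine kinase, gave 212 (TANGO siRNA) and 1568 (MATE2 siRNA), against 2108, 1594, 2162 and 2063 on the 4 others, so that the MATE2 siRNA array lay at the lower edge of the 4 others. MKI67, which encodes the proliferation marker Ki-67, was the exception, with 1101 and 1165 on the TANGO and MATE2 siRNA arrays, against 712, 773, 713 and 646 on the 4 other arrays. BIRC2, an inhibitor of apoptosis, gave 159 (TANGO siRNA) and 154 (MATE2 siRNA), against 493, 273, 421 and 585 on the 4 others, and 7 of 16 genes of the BCL2 and IAP families lay below all 4 other arrays, 1 above, with 0 past the rule. GCLC, which starts glutathione synthesis, gave 87.4 and 179.6 on the TANGO and MATE2 siRNA arrays, against 668, 1724, 2392 and 667 on the MIA siRNA, MIA2 siRNA, LEMD1 siRNA and control arrays. It passed downwards on the TANGO and MATE2 siRNA arrays, and was higher on the MIA2 and LEMD1 siRNA arrays than on the MIA siRNA and control arrays. GCLC alone passed among 18 measured NRF2 targets and aldo-keto reductases, of which 4 lay below and 0 above all 4 other arrays. By array, the median of that list against the mean of the 4 others was -1.20 on the TANGO siRNA array and 0.56 on the MATE2 siRNA array. The TANGO and MATE2 siRNA arrays thus went opposite ways on that list. DDB2, a sensor of DNA damage and a p53 target, was the 1 of 23 measured genes on a list of p53 targets that passed. It gave 68.8 and 57.6 on the TANGO and MATE2 siRNA arrays, against 172, 203, 161 and 157 on the 4 other arrays. DDB2 did not pass with another background correction. The list is not complete. GDF15, named above, is outside it and passed upwards. RPS27L, also outside it, passed downwards, with 147 (TANGO siRNA) and 151 (MATE2 siRNA), against 479, 1079, 1024 and 417 on the 4 others.

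**Figure D3:**
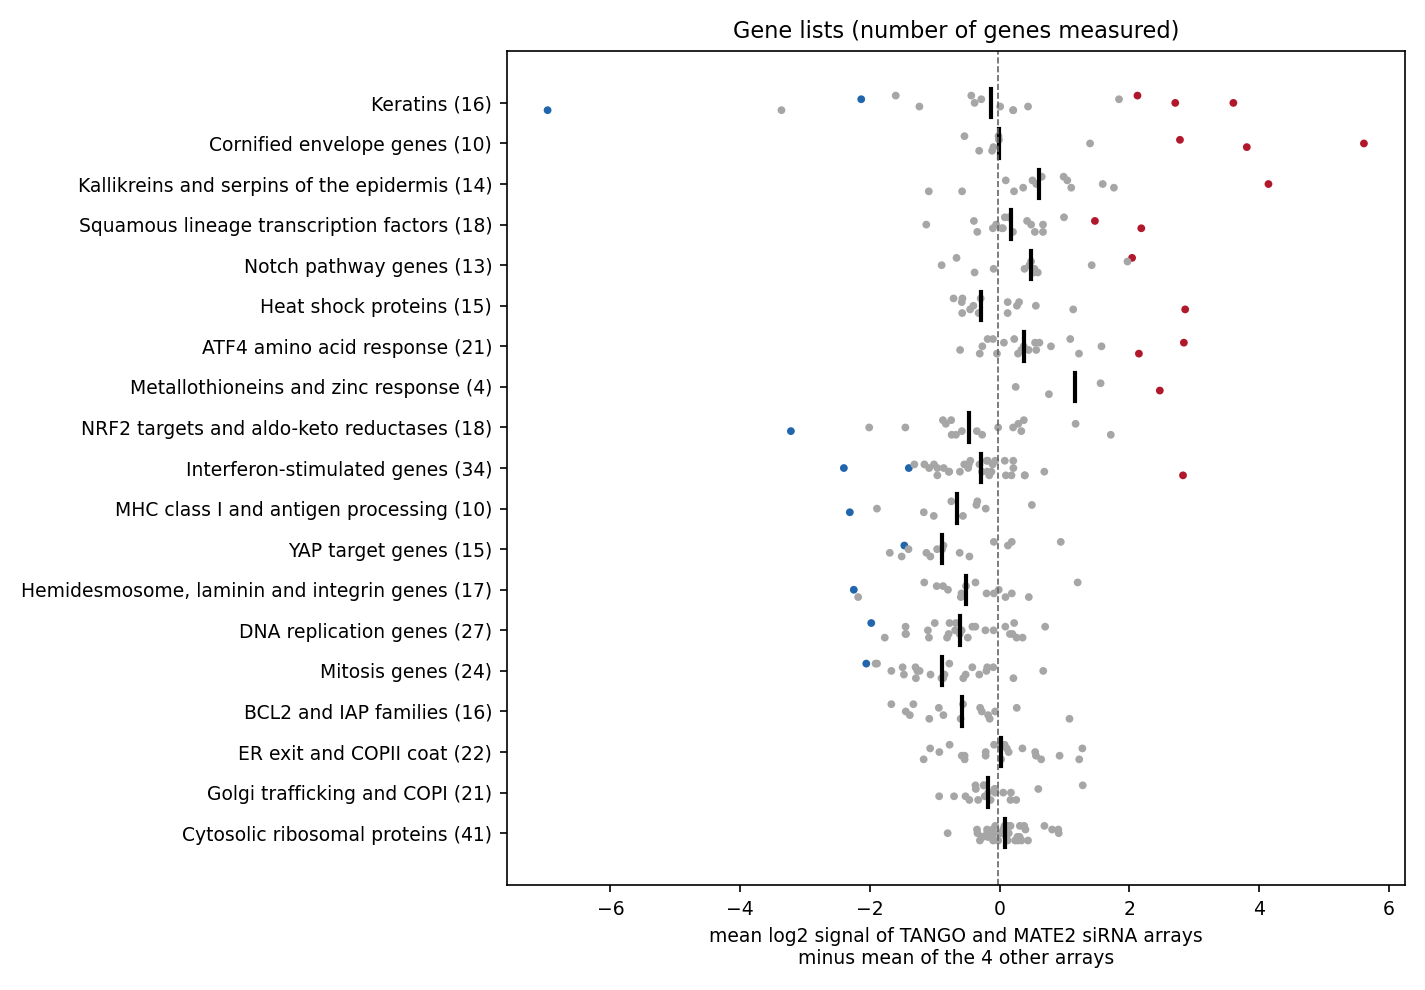
Mean log2 signal of the TANGO and MATE2 siRNA arrays less the mean of the 4 other arrays (x axis) for the genes of 19 lists (y axis, with the number of genes measured), with red points past the rule upwards, blue points past it downwards, grey points past neither, black bars for medians and a dashed line for the median of all genes. Medians run from -0.88 in the YAP and mitosis lists to 1.16 in the 4 metallothionein and zinc genes, and the keratins have the widest range, with KRT19 at -6.97 and KRT16 at 3.61.

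Among the housekeeping lists, 0 of 41 cytosolic ribosomal protein genes, 0 of 34 respiratory chain genes and 0 of 30 proteasome genes passed the rule, and their medians were 0.08, 0.09 and -0.02. Of 41 mitochondrial ribosomal protein genes, MRPS10 alone passed, with 969 (TANGO siRNA) and 1193 (MATE2 siRNA), against 305, 281, 247 and 294 on the 4 others. Of 29 genes of cholesterol and fatty acid synthesis, CYP51A1, the lanosterol demethylase, alone passed, with 1441 and 925 on the TANGO and MATE2 siRNA arrays, against 178, 241, 342 and 189.7 on the 4 other arrays. H2BC21, a histone gene with polyadenylated transcripts, gave 1274 (TANGO siRNA) and 1078 (MATE2 siRNA), against 114, 258, 503 and 132 on the 4 others. MAP1LC3B, the autophagosome protein LC3B, gave 1588 and 1169 on the TANGO and MATE2 siRNA arrays, against 518, 450.1, 473 and 577 on the 4 other arrays. Neither H2BC21 nor MAP1LC3B passed with the groups normalized apart. The other good probe of MAP1LC3B gave 926 (TANGO siRNA) and 667 (MATE2 siRNA), against 385, 302, 333 and 416 on the 4 others. That probe lay above all 4 by less than 2-fold. H2BC21 alone passed among 13 histone genes, with 2 above and 2 below all 4 and a median of -0.29. Of 28 lysosome and autophagy genes, MAP1LC3B passed upwards and CTSS downwards, and the median was 0.05.

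The members varied in size and in how far the TANGO and MATE2 siRNA arrays were alike. The smallest fold between either of them and any of the 4 other arrays had a median of 2.39 among the lower probes and 2.42 among the higher probes, and it was at least 4 in 20 and 18 probes. Of the lower probes 17 (8.95%), and of the higher probes 20 (19.4%), were at least 2-fold apart between the TANGO and MATE2 siRNA arrays, against 9.58% of all good probes. The 4 other arrays lay within 2-fold of each other in 154 lower probes (81.1%) and 81 higher probes (78.6%), against 90.2% of all good probes. The MIA2 and LEMD1 siRNA arrays were both at least 2-fold above the MIA siRNA and control arrays in 8 lower probes (4.21%) and 5 higher probes (4.85%), against 0.67% of all good probes. They were both at least 2-fold below them in 3 lower probes (1.58%) and 3 higher probes (2.91%), against 0.994% of all. SPRR1B, HSPB1, KRT6C and ID3 were thus members on which the MIA2 and LEMD1 siRNA arrays took a middle place, while GCLC and SPARC were members on which they lay on the other side of the MIA siRNA and control arrays. At the border of the rule, ZBED2 (2.005-fold), SARNP and TBC1D22A (both 2.013-fold) were just inside on the lower side, with ABHD16A (1.996-fold), HACD1 (1.990-fold) and SCPEP1 (1.984-fold) just outside. STAP2 and ZFAND1 (both 2.013-fold) and PYCR1 (2.025-fold) were just inside on the higher side, with PAAF1 (just under 2-fold), TMEM106B and UCA1 (both 1.994-fold) just outside. Another probe of TMEM106B went the other way. It was near background on the TANGO and MATE2 siRNA arrays, against 117, 82.3, 88.3 and 98.8 on the 4 other arrays, at least 2.62-fold lower.

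**Figure D4:**
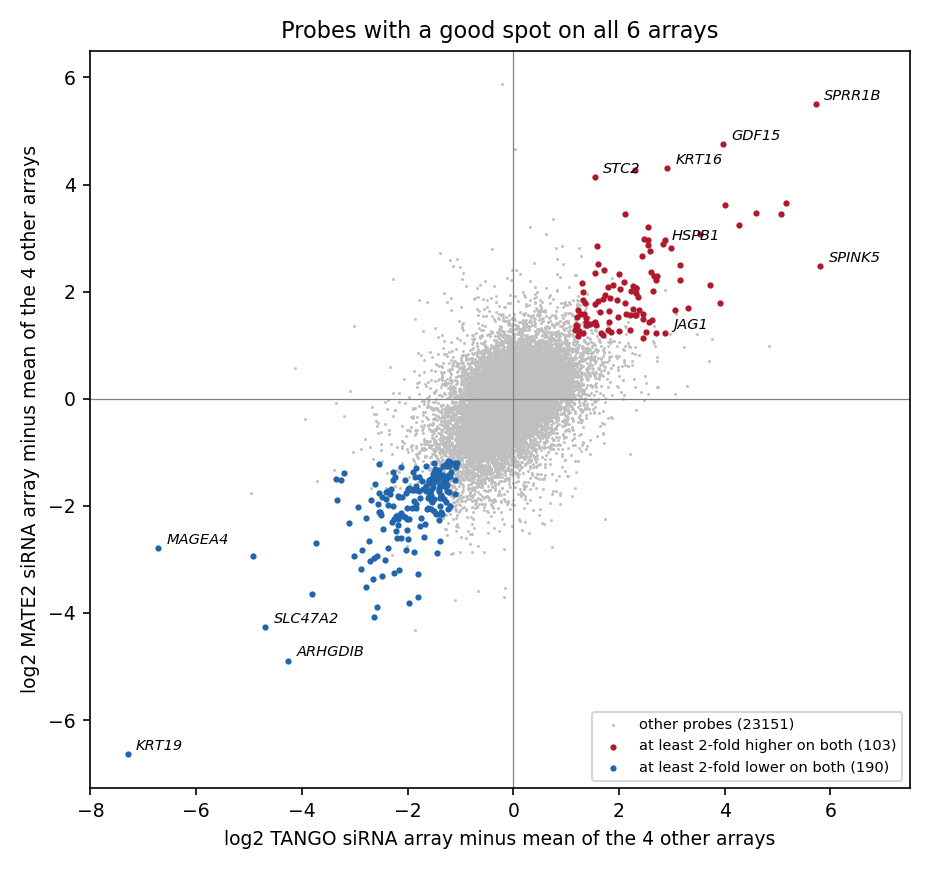
Log2 signal of the TANGO siRNA array (x axis) and of the MATE2 siRNA array (y axis), each less the mean of the 4 other arrays, for the 23444 probes with a good spot on all 6 arrays. The 190 lower members are blue, the 103 higher members red and the other 23151 probes grey, and KRT19 and SPRR1B are the outermost members while MAGEA4, SPINK5 and STC2 lie off the diagonal; as both axes subtract the same 4 arrays, part of the slope of the cloud is shared by construction.

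Other probes of the same gene bear on the members. Of the lower genes 22 had another good probe, 22 probes in all, of which 8 passed the rule downwards, 15 lay below all 4 other arrays by any amount and 0 passed upwards. Of the higher genes 7 had another good probe, 8 in all, of which 1 passed upwards, 7 lay above all 4 and 0 passed downwards. A further 16 genes passed downwards, and 5 upwards, by another probe but not by the probe taken. The counts of genes and of list members leave them out. Probes of a gene share their RNA and are no replicates.

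Some probes could be given only as a bound, being near background on the TANGO and MATE2 siRNA arrays and good on all 4 others, or the reverse. Among all 53103 unmasked gene probes, there were 74 such probes with a bound of at least 2-fold on the lower side, of 244 in all, and 42 of 332 on the higher side. GALNT6, which starts the O-glycosylation of proteins, was near background on the TANGO and MATE2 siRNA arrays by 1 probe, which gave 633, 692, 654 and 755 on the 4 other arrays, at least 16.9-fold lower. Another probe of GALNT6 was good on all 6 arrays and passed the rule, with 62.5 (TANGO siRNA) and 63.9 (MATE2 siRNA), against 327, 289, 376 and 392 on the 4 others, at least 4.52-fold lower. ACP5, an acid phosphatase of osteoclasts and macrophages, gave 284, 448, 376 and 315 on the 4 other arrays (at least 9.05-fold lower). RAMP1, a partner of the calcitonin-like receptor, gave 675, 430.0, 255 and 789 there (at least 8.12-fold lower). CCDC69, a coiled-coil protein, followed with 264, 247, 204 and 273 on the 4 other arrays (at least 4.94-fold lower). In the other direction, CYBA, a subunit of NADPH oxidase, gave 539.9 and 662 on the TANGO and MATE2 siRNA arrays and was near background on the 4 others, at least 14-fold higher. TCEAL8, of the TCEAL family on the X chromosome, gave 854 and 577 on the TANGO and MATE2 siRNA arrays (at least 14.9-fold higher). S100A8, a subunit of calprotectin in neutrophils and stressed epithelium, gave 1608 and 296 there (at least 7.66-fold higher). CEP15, ZNF585A and MAGED1 had bounds of at least 8.34-fold, 6.08-fold and 4.96-fold higher.

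The differences were also set out by position. Along the chromosomes, 11461 genes were placed in 218 windows of about 50 neighbouring measured genes, without regard to the rule. The median difference of a window from the mean of the 4 other arrays ran from -0.62 to 0.60 on the TANGO siRNA array and from -0.58 to 0.53 on the MATE2 siRNA array. Set against the mean of the remaining 3 arrays, the medians of the MIA siRNA, MIA2 siRNA, LEMD1 siRNA and control arrays ran from -0.23 to 0.22. Over 0.3 in size were 28 windows on the TANGO siRNA array and 14 on the MATE2 siRNA array, and 0 on each of the 4 other arrays. Some stretches of neighbouring genes thus lay to 1 side on both arrays, and others on 1 array alone.

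The highest window, by the mean of both arrays (0.61), was at the start of chromosome 19, with the genes PLPP2 to ZNF556. Its median was 0.60 on the TANGO siRNA array and 0.53 on the MATE2 siRNA array, against 0.00, 0.08, -0.06 and 0.05 on the MIA siRNA, MIA2 siRNA, LEMD1 siRNA and control arrays. Of its 53 genes, 28 (52.8%) lay above all 4 other arrays, against 15.6% of all genes, and 4 passed the rule upwards, namely CDC34, POLRMT, RNF126 and ARID3A. The other good probe of POLRMT gave 148 (TANGO siRNA) and 153 (MATE2 siRNA), against 133, 102, 130 and 109 on the 4 others. That probe lay above all 4 by less than 2-fold. The window P2RY6 to TMEM126B of chromosome 11 had medians of 0.54 and 0.43 on the TANGO and MATE2 siRNA arrays, and 6 of its 52 genes passed upwards, SERPINH1 among them with COA4, PPME1, PGM2L1, ACER3 and CLNS1A. The other good probe of PPME1 passed as well. For COA4 the other good probe gave 111 (TANGO siRNA) and 134 (MATE2 siRNA), against 70.5, 114, 79.6 and 67.0 on the 4 others. The groups overlapped there. ASNS and CYP51A1 lay in 1 window of chromosome 7, CYP51A1 to TRAPPC14, with BUD31 and TRIM4 as its other higher members and medians of 0.59 and 0.27. Some stress genes named above thus had neighbours of other functions that were higher with them.

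Windows were lower as well. The lowest by the mean of both arrays (-0.49), TMEM41B to TSG101 on chromosome 11, had medians of -0.48 and -0.33 on the TANGO and MATE2 siRNA arrays, against 0.02, -0.06, 0.03 and 0.08 on the 4 other arrays, and 25 of its 53 genes (47.2%) lay below all 4, against 18.9% of all genes. Its neighbour, UEVLD to ALX4, had -0.62 and -0.20, and the end of chromosome 4, SH3D19 to TRIML2, had -0.43 and -0.58 with TRIML2 among its lower members. LATS2 lay in the lower window FAM230C to RFXAP of chromosome 13, with medians of -0.17 and -0.40. The part that position has in the gene lists, and the causes of these shifts, were not tested.

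**Figure D5:**
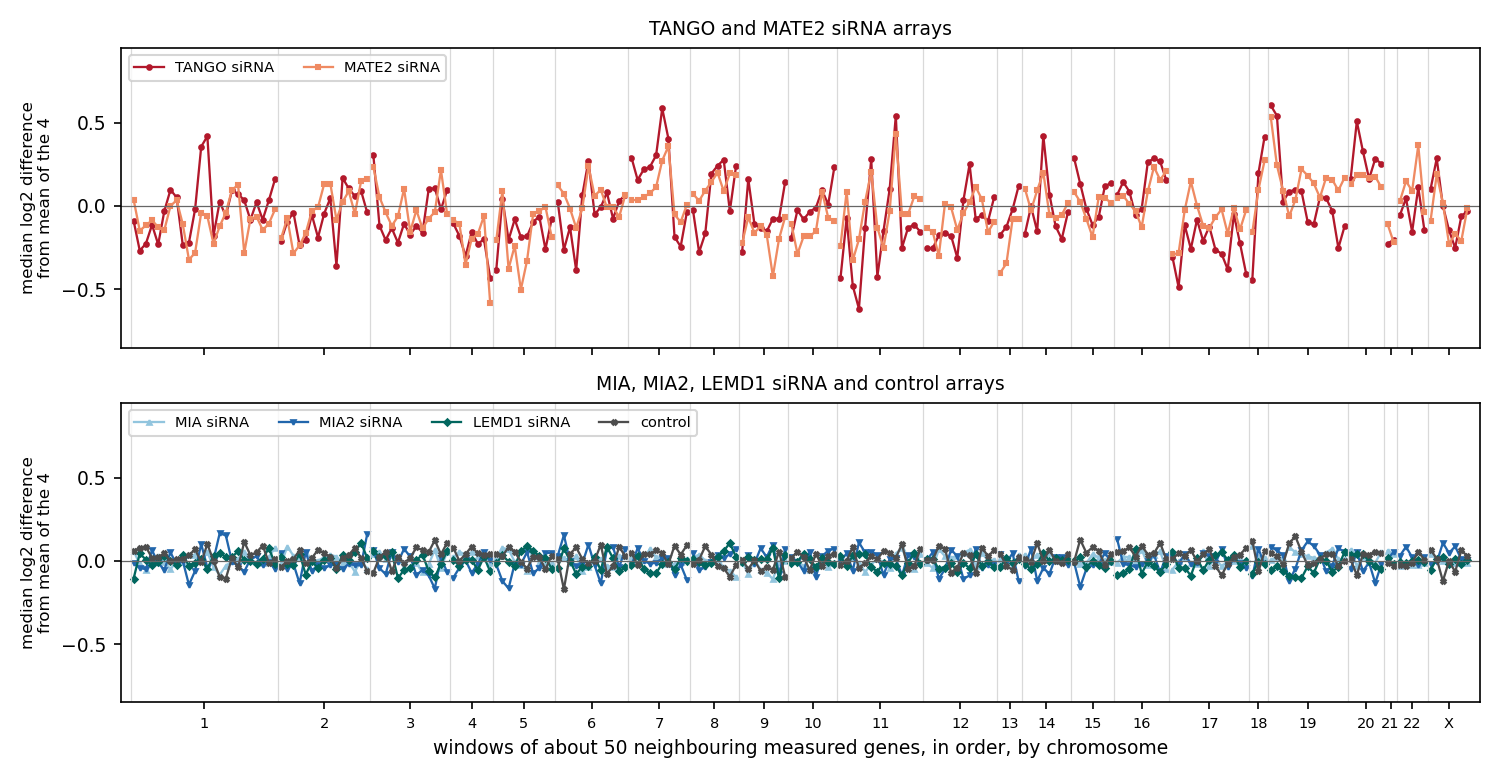
Median log2 difference from the mean of the 4 other arrays (y axis) over 218 windows of about 50 neighbouring measured genes, in order along chromosomes 1 to 22 and X (x axis), for the TANGO and MATE2 siRNA arrays (top) and for the MIA siRNA, MIA2 siRNA, LEMD1 siRNA and control arrays (bottom), each of which is itself part of that mean. The TANGO siRNA array ranges from -0.62 to 0.60 and the MATE2 siRNA array from -0.58 to 0.53, with shared peaks on chromosomes 7, 11 and 19 and a shared trough at the end of chromosome 4.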

How the data were processed

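Gene expression was measured on 6 one-colour CodeLink arrays labelled with Cy5, 1 array for each label, and conditions were taken from the deposited labels. The deposited scanner output, written by CodeLink Expression Analysis 5.0.0.31312, gives a background-subtracted intensity for every spot. Subtracting the deposited background median from the spot mean gave that intensity to within 0.0001. The authors also deposited a quantile normalized intensity table made with Microarray Data Analysis Tool, which the scanner values gave within 1% plus 1 for 100% of values. It served as an alternative.

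Of 53423 gene probes, 320 masked probes were left out, quantile normalization was applied to the others across the 6 arrays, signals below 1 were raised to 1, and log2 values were used. A good flag was required on all 6 arrays. Values near background enter as bounds, using the higher of a spot's own signal and the lowest good signal of its array. For a gene, the good probe with the highest mean log2 signal was taken. Symbols came from the platform table, updated through RefSeq (GRCh38.p14), or from the sequence accession, and 24127 gene probes had 1 gene, 905 several and 28391 none. Genes were named where they had the 12 largest gaps in a direction, passed the rule in a gene list (up to 5 a list), were targets of the siRNAs or had 1 of the 6 largest bounds in a direction. Genes named beyond this, as list members that did not pass, members outside the lists, windows and border cases, were chosen after their values were seen. Genes used in the check for mixed-up samples are not reported, also where a bound would name them. Lists hold chosen genes and not whole families. The members and lists were chosen with earlier results of these data known.

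No test was run, as each label has 1 array. The rule was run on simulated data before use. Alternatives were median scaling, quantile normalization over all spots, the deposited table, normalizing the groups apart, normexp background correction (limma 3.58.1, offset 50), no background correction, 50 added to the signal, other flag filters, bright probes alone, other folds, the mean over probes and leaving out each array. Scripts used Python 3.11.15, numpy 2.4.6, pandas 2.3.3 and R 4.3.3.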

Additional observations from a re-analysis of the deposited data

How the results depend on the processing

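Counts depended on the treatment of dim signal and on the fold. The main counts were 190 lower and 103 higher probes, and 141 lower and 78 higher genes. With normexp background correction they were 97, 64, 79 and 51, without background correction 87, 62, 72 and 49, and with 50 added to the signal 100, 65, 81 and 51 in the same order. Without the filter on flags they were 607, 300, 319 and 182. With a 1.5-fold rule they were 611, 375, 431 and 249, and with a 3-fold rule 42, 31, 30 and 25. Leaving out 1 array at a time gave 206 to 793 lower and 119 to 430 higher probes, and 147 to 610 lower and 89 to 294 higher genes. The largest counts came without the TANGO siRNA array (793, 430, 610 and 294) and the next without the MATE2 siRNA array (523, 390, 375 and 271), since 1 array then has to pass where both had to. The counts stayed within 1.5 times the main ones under the other alternatives, with 229 lower and 82 higher probes under median scaling, which moved the median log2 difference of all genes to -0.10. Of 55 named genes, 41 passed under all 9 alternatives of normalization, background, low signal and flags, and 0 changed direction. The alternatives of flags keep the probe and the values of each named gene, so all 55 passed there by construction. The deposited table gave the same counts as quantile normalization over all spots, so those alternatives are not separate checks. ID3 and GRHL3 did not pass under median scaling, KRT6C under quantile normalization over all spots and in the deposited table, and ASNS, ID3, H2BC21, MAP1LC3B, JAG1 and GRHL3 with the groups normalized apart. COL17A1, LAMB1, LATS2, KIF11, DDB2, STC2, ID3, MAP1LC3B, JAG1 and GRHL3 did not pass with normexp, without background correction or with 50 added, nor did KLF4 without background correction. The medians of the windows past 0.3, recomputed under the same alternatives by a choice made after seeing the data, kept their sign in all 272 cases, with sizes from 0.13 to 0.83, so that some moved by over 1.5 times. The alternatives of flags keep the same values for these windows, so no change was possible there. Signal over background is the limit on dim genes, with 22343 to 25425 gene probes near background on an array. No paired analysis was possible because each label has 1 array and the labels share only the replicate number 1.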
